A study of Mus musculus with 19 samples.

Results

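Genes of the cardiac sarcomere and its Z-disc were followed in mouse hearts as a set of 31 members, chosen by gene symbol among the 29726 genes measured. All 31 were in the table, 30 passed the filter of at least 1 FPKM (fragments per kilobase of transcript, scaled to the fragments of the library) in at least 4 libraries, and Tnni1 did not. The 19 libraries were made from poly(A) RNA of frozen heart pieces of wild-type C57BL/6NTac mice aged 2 months, all raised germ-free, which then received a gut microbiome by transfer. There were 5 females with a dysbiotic microbiome (DM), 5 females with a normal microbiome (NM), 5 DM males and 4 NM males. Dysbiotic material came from Il10-/- donors, which lack the anti-inflammatory cytokine interleukin-10, and normal material from wild-type donors. The comparison of DM with NM asks which heart transcripts differ with the transferred microbiome. The labels name neither cages nor donor animals nor library batches, so each mouse was taken as independent, and a cage or batch that follows the groups cannot be told apart from the microbiome.

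The sarcomere is the contractile unit of striated muscle, in which myosin thick filaments pull on actin thin filaments anchored at the Z-disc and titin spans from the Z-disc to the M-band. Troponin and tropomyosin on the thin filament make contraction depend on calcium. Cardiac chambers differ in some of these proteins: the light chains encoded by Myl7 and Myl4 mark the atria of the adult heart, and those encoded by Myl2 and Myl3 mark the ventricles. The Z-disc also holds cross-linkers, mechanosensors and chaperone-bound proteins such as filamin C, and mutations in many of these genes cause cardiomyopathy.

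Promoters of 4 members are shown because, in the values below, Myl7 and Myl4 ordered the libraries much alike, as did Flnc and Synpo2l. No correlation between members was computed, and all 4 were highest in DM male 3. Shared regulation of these genes was not tested. Each sequence runs from 250 bases before to 50 bases after the transcription start in RefSeq on GRCm38.p6, on the strand of the gene: chr11:5898733-5899032 on the minus strand for Myl7, chr11:104550413-104550712 on the plus strand for Myl4, chr6:29432903-29433202 on the plus strand for Flnc and chr14:20668305-20668604 on the minus strand for Synpo2l. Capitals mark the MEF2 motif (CTA, any 4 bases, then TAG, bound by MEF2 factors in other muscle promoters) and the M-CAT motif (CATTCC, bound by TEAD factors), searched on both strands.
Myl7: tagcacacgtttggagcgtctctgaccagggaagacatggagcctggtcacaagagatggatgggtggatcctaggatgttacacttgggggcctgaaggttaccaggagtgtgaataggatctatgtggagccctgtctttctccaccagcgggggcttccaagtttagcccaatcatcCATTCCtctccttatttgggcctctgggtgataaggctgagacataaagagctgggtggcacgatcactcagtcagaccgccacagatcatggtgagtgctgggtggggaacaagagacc
Myl4: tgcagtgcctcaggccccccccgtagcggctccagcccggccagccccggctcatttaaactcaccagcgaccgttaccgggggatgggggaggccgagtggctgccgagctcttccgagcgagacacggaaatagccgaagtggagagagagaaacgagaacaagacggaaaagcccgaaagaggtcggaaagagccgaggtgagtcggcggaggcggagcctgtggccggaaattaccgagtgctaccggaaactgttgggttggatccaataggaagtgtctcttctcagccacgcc
Flnc: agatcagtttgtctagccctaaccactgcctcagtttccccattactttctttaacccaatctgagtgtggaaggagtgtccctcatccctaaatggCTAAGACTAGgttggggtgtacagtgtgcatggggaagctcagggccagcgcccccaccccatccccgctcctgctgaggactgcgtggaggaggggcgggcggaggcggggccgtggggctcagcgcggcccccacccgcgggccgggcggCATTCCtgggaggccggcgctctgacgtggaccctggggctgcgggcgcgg
Synpo2l: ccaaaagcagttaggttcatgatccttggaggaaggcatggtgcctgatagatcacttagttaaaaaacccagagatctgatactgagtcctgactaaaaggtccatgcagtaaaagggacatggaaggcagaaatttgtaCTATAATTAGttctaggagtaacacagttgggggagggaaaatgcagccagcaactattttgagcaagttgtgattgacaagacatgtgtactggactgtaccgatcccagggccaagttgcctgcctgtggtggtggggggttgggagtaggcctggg
The Flnc window held 1 match to each motif, the Synpo2l window 1 to that of MEF2, the Myl7 window 1 to M-CAT, and the Myl4 window neither. Among the 27 members with a promoter in the table, 7 held the MEF2 motif (25.9%, against 3.70% of 27025 promoters of the same length) and 11 held M-CAT (40.7%, against 14.6%). Another motif, AGATAA, which zinc finger factors of the heart such as Gata4 bind, was in 6 of the 27 (22.2%, against 11.4%). The MEF2 motif was in the windows of Des, Ttn, Mybpc3, Myoz2, Flnc, Synpo2l and Ldb3. The TATA box was in 4 of the 27 (14.8%, against 14.2%). These are matches of letters and say nothing of binding, and Tcap, Myom2, Myot and Nexn were not matched by symbol.

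The depth was roughly estimated at 16400000 to 23200000 fragments per library. For this, the most frequent value of FPKM times transcript length, over genes with 1 transcript, was taken as 1 fragment. Only 14.0% to 18.3% of low values were near whole multiples of it, so the estimate is uncertain. No counts were used, so no counting interval is given. Markers of heart muscle other than the members (Ryr2, Atp2a2, Pln, Slc8a1, Ckm, Mb, Cox6a2, Hrc and Casq2) were all over the filter. Fibroblast, endothelial, smooth muscle, macrophage and red cell markers passed as well, so the libraries hold whole tissue although the labels give cardiocytes. All 5 liver-typical genes listed (Alb, Apoa1, Apoa2, Serpina1a and Ttr) also passed, at very uneven levels. They summed to 0.299 to 252 FPKM in DM females, 47.2 to 275 FPKM in NM females, 1.36 to 333 FPKM in DM males and 56.3 to 702 FPKM in NM males. Their part in the values of the members was not tested. Of 9 markers of skeletal muscle, 7 were in the table and 6 of these stayed under 1 FPKM in every library, the exception being Myl1. In such tissue, fewer cells of a type and less RNA per cell cannot be told apart.

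The levels of the members, which FPKM gives per transcript length, ranged widely between genes and little between hearts. Means over the 19 libraries exceeded 1000 FPKM for 7 members, lay between 100 and 1000 FPKM for 13 and between 5 and 100 FPKM for 10. Cardiac actin Actc1 was highest at 5398 FPKM, followed by Myh6, the main adult mouse myosin heavy chain, at 2736 FPKM and the ventricular regulatory light chain Myl2 at 2317 FPKM. The essential light chain Myl3 (1447 FPKM), the inhibitory troponin Tnni3 (1321 FPKM), the calcium-binding troponin Tnnc1 (1204 FPKM) and the titin cap Tcap (1184 FPKM) were the others over 1000 FPKM. The slow skeletal and fetal inhibitory troponin Tnni1 averaged 0.144 FPKM. Among the 30 members over the filter, the coefficient of variation over all libraries was 4.55% at its lowest, for the thin filament cap Tmod1, and 34.6% at its highest, for Flnc. Its median was 9.50%, and 16 members stayed under 10%.

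A few libraries carried much of the variation, and in some of them most members lay on 1 side of their group means, as did the median of all genes. In DM male 5, 23 of 30 members were above their group mean, with the members making up 8.79% of all FPKM outside the mitochondrial genome, against 6.88% in DM male 1, where 1 of 30 was above. Tnni3 reached 1821 FPKM in DM male 5, while the other DM males had 1124 to 1294 FPKM. DM male 3 held the highest Flnc (51.3 FPKM), Synpo2l (33.5 FPKM) and Myl7 (891 FPKM) of all 19 libraries, together with the highest Acta1 (992 FPKM), the skeletal actin gene of the fetal heart, and Ankrd1 (640 FPKM), a stretch-responsive repeat protein of the sarcomere. Only 2 of 30 members were above their group mean in DM female 5, and 27 of 30 were in NM female 2. The median log2 deviation from the group mean was 0.12 over the members and 0.05 over all genes in DM male 5, and -0.11 and -0.06 in DM male 1. It was -0.11 over the members and -0.06 over all genes in DM female 5, and 0.08 and 0.05 in NM female 2. These libraries thus lay to the same side over all genes. Some results that rest on DM males 3 and 5 are given with and without these libraries, a choice made after seeing the data. The male values of Des, Tcap and Tnnt2, the response difference of Tcap and the isoform ratios below are not given without both.

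**Figure D1:**
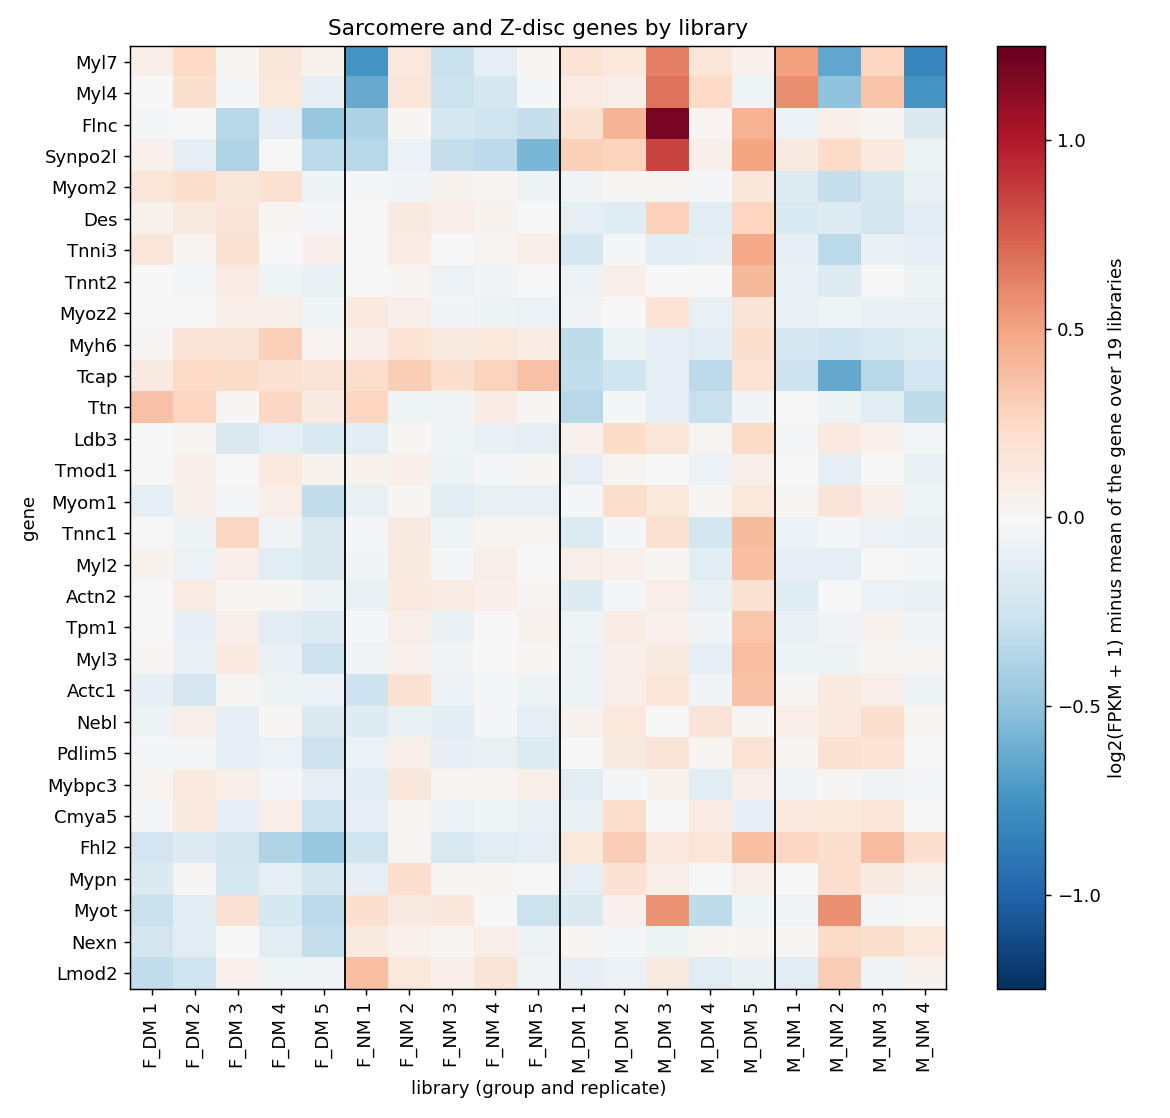
Colours give log2(FPKM + 1) of each of the 30 members over the filter (rows, ordered by log2 change between DM and NM over both sexes) minus its mean over the 19 libraries (columns, by group and replicate). DM male 3 stands out in Flnc, Synpo2l, Myl4, Myl7 and Myot, DM male 5 in Tnni3 and Tnnc1, and the columns of females are low in Fhl2 and high in Tcap.

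Between the microbiomes, 2 of the 30 members passed over both sexes, 1 in each direction, and both changes were small. Myom2 (myomesin 2, which cross-links myosin at the M-band) was 1.13-fold higher in DM hearts, and Nexn (nexilin, an actin-binding Z-disc protein) was 0.886-fold as high in DM as in NM hearts. The 2 calls are 6.67% of the members, against 5.67% of the 10866 genes tested (3.34% higher and 2.33% lower), so the share of members called was near that of all genes. The median log2 change of the members was 0.03, with 22 positive and 8 negative values, and the median of all genes was 0.02. After median-ratio scaling of the libraries the members' split was 1 higher and 2 lower, with Fhl2 as the added gene, and that of all genes was 365 higher and 394 lower (332 and 412 with a GC correction), against 363 higher and 253 lower as deposited. In the authors' deposited table, whose test is a different one, 0 of 31 members had q at most 0.05 (1.8% of its 29726 genes did), with q = 0.0663 for Myom2 and q = 0.0747 for Nexn.

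Myom2 (ENSMUSG00000031461, chr8:15057653-15133541 on GRCm38, plus strand) had 114, 119, 113, 116 and 97.3 FPKM in the DM females, against 101, 99.8, 105, 105 and 97.3 FPKM in the NM females. In males it had 99.1, 103, 104, 100 and 113 FPKM with DM, against 90.9, 83.2, 88.3 and 95.8 FPKM with NM. Every DM male was above every NM male, and the female groups overlapped through DM female 5 alone. The share of all genes whose male groups separate in this way was not counted. The log2 change was 0.17 ± 0.04 (SE) over both sexes, with an adjusted p of 0.0127 from limma with Benjamini-Hochberg adjustment over all genes tested. It was 0.13 ± 0.06 in females (adjusted p = 0.251) and 0.21 ± 0.06 in males (adjusted p = 0.0675), neither of which passed. The male change passed in 1 of the 19 fits that leave out 1 library, the one without DM female 5 (adjusted p = 0.0275).

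Nexn (ENSMUSG00000039103, chr3:152236982-152266350, minus strand) had 84.9, 90.8, 99.1, 90.6 and 80.9 FPKM in the DM females, against 108, 104, 102, 106 and 95.2 FPKM in the NM females. Male hearts had 102, 98.8, 95.1, 101 and 102 FPKM with DM, against 101, 117, 114 and 110 FPKM with NM. Most DM hearts were below most NM hearts, but the groups overlapped in both sexes, through DM female 3 and NM female 5 and through NM male 1. Nexn fell by 0.17 ± 0.04 on the log2 scale over both sexes (limma, adjusted p = 0.0127) and had the same sign in females (-0.21 ± 0.06, adjusted p = 0.0498) and males (-0.14 ± 0.06, adjusted p = 0.262). The female call sits at the threshold: it was kept in 5 of the 19 fits that leave out 1 library (without DM female 3, NM female 5, DM male 5, NM male 1 or NM male 2) and lost in 14, where the adjusted p reached 0.134 at most.

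Both calls over both sexes stood in every one of the 19 fits that leave out 1 library, with adjusted p-values of up to 0.0382 for Myom2 and 0.0378 for Nexn. Without DM males 3 and 5 the log2 changes were 0.15 for Myom2 (adjusted p = 0.0364) and -0.17 for Nexn (adjusted p = 0.0284). None of the 9 other heart muscle markers passed between the microbiomes, and their summed level ran from 9752 to 10612 FPKM in DM females, 10162 to 10835 FPKM in NM females, 9562 to 11425 FPKM in DM males and 9828 to 10176 FPKM in NM males. Of the 6 fibroblast markers, Col3a1 (-0.31) and Col1a1 (-0.24) fell, while Tcf21 (0.13), Lum (-0.09), Pdgfra (0.0088) and Dcn (-0.0029) did not pass. The fibroblast list summed to 119 to 130 FPKM in DM females, 124 to 138 FPKM in NM females, 120 to 130 FPKM in DM males and 119 to 139 FPKM in NM males. Its part in the changes of Myom2 and Nexn was not tested.

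**Figure D2:**
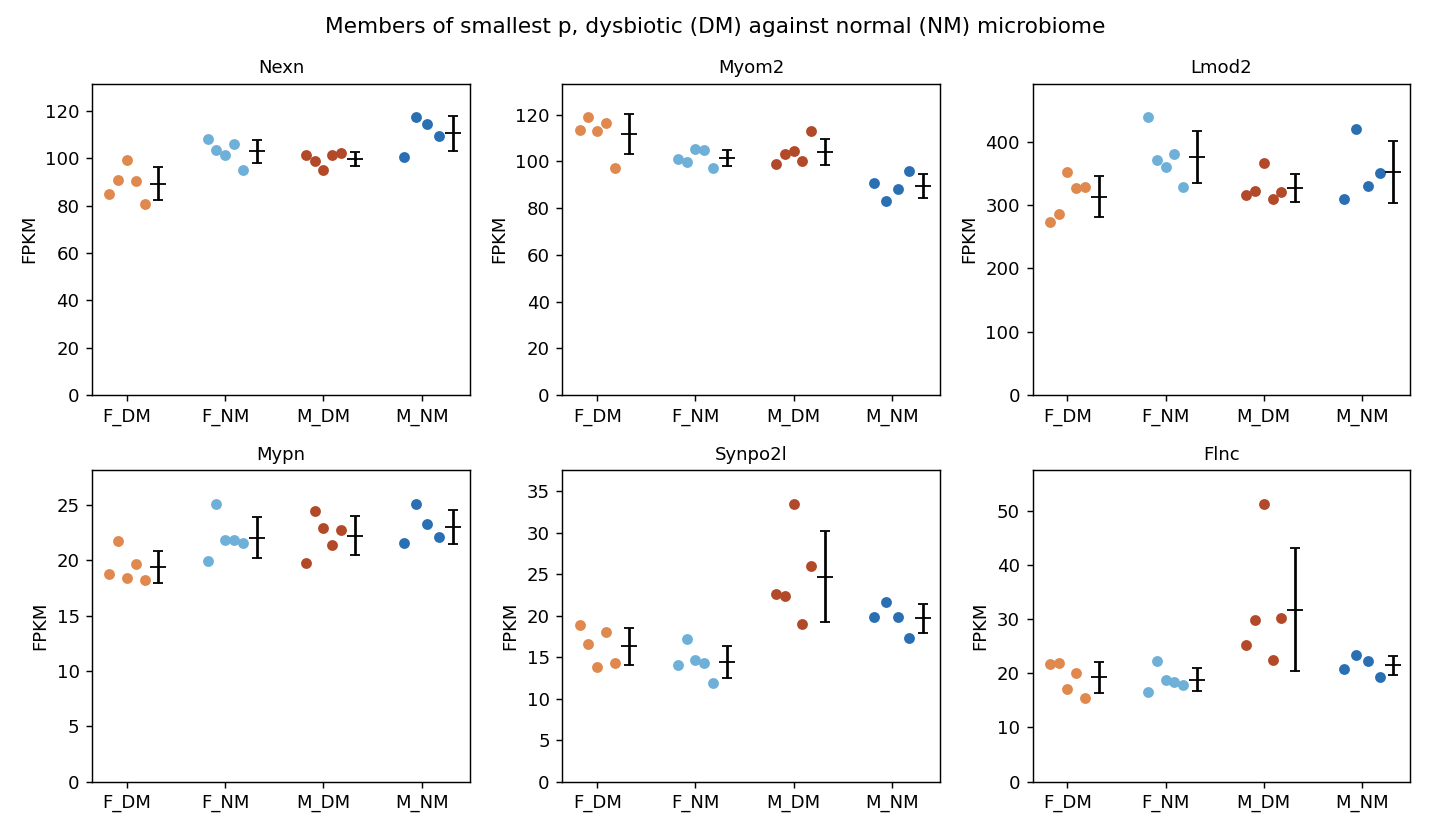
Each point is the FPKM of 1 library in DM females (F_DM), NM females (F_NM), DM males (M_DM) and NM males (M_NM), with the group mean and SD in black, for the 6 members of smallest p over both sexes. Only Nexn and Myom2 passed the threshold, and the single high point of Flnc and of Synpo2l is DM male 3.

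The 4 next members by p did not pass. Lmod2 (leiomodin 2, which elongates thin filaments at their pointed ends) had 273, 285, 352, 327 and 328 FPKM in DM females, against 439, 371, 360, 380 and 328 FPKM in NM females. In males it had 316, 321, 366, 309 and 320 FPKM with DM, against 309, 420, 329 and 350 FPKM with NM. The groups overlapped in each sex, with the highest values of each sex in an NM library, and the log2 change over both sexes was -0.18 ± 0.06 (limma, adjusted p = 0.118).

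Mypn (myopalladin, a Z-disc protein that binds nebulette and alpha-actinin) had 18.8, 21.8, 18.4, 19.7 and 18.2 FPKM in DM females, against 19.99, 25.1, 21.8, 21.9 and 21.6 FPKM in NM females. The male values were 19.7, 24.4, 22.9, 21.4 and 22.7 FPKM with DM, against 21.5, 25.1, 23.3 and 22.2 FPKM with NM, so the groups overlapped in both sexes. Its log2 change was -0.11 ± 0.05 (adjusted p = 0.221). Nexn, Lmod2 and Mypn were thus the members with the smallest p among those of negative sign.

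Synpo2l (an actin-associated Z-disc protein of the synaptopodin family) had 18.9, 16.6, 13.8, 18.1 and 14.3 FPKM in DM females, against 14.1, 17.2, 14.6, 14.3 and 11.9 FPKM in NM females. The male values were 22.6, 22.3, 33.5, 19.02 and 26.0 FPKM with DM, against 19.8, 21.7, 19.8 and 17.4 FPKM with NM. The groups overlapped in both sexes and the log2 change was 0.23 ± 0.09 (limma, adjusted p = 0.165).

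Flnc (filamin C, an actin cross-linker of the Z-disc) had 21.7, 21.9, 17.0, 20.1 and 15.5 FPKM in DM females, against 16.6, 22.3, 18.8, 18.4 and 17.8 FPKM in NM females. In males it had 25.2, 29.8, 51.3, 22.4 and 30.1 FPKM with DM, against 20.9, 23.4, 22.2 and 19.3 FPKM with NM. DM male 3 was far above every other library, and DM male 4 was the 1 DM male below an NM male. The log2 change was 0.26 ± 0.12 over both sexes (adjusted p = 0.259), 0.03 ± 0.16 in females (adjusted p = 0.975) and 0.49 ± 0.17 in males (adjusted p = 0.178). Without DM males 3 and 5 the change over both sexes was 0.14 for Flnc (adjusted p = 0.425) and 0.14 for Synpo2l (adjusted p = 0.387).

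Within each sex the microbiomes differed in few members. In females 1 of 30 passed, Nexn, in a comparison where 2.84% of genes did (1.86% higher and 0.985% lower), with 15 positive and 15 negative values and a median log2 change of -0.0028, against 0.011 for all genes. All genes in females split into 202 higher and 107 lower, and into 217 and 193 with a GC correction and into 215 and 177 after median-ratio scaling, where Fhl2 joined Nexn. Unadjusted p-values from limma were under 0.05 for 5 of 30 members in females, against 1509 of all 10866 genes. In males 0 of 30 passed (1.91% of genes did, 0.957% higher and 0.948% lower). An unadjusted p under 0.05 was found for 7 of 30 members in males, against 1480 of all 10866 genes. The members' male values were positive for 20 and negative for 10, with a median of 0.09, against 0.02 for all genes. All genes in males split into 104 higher and 103 lower, and into 106 and 175 with a GC correction. The male values of Des (desmin, the intermediate filament at the Z-disc, 0.21 ± 0.08, adjusted p = 0.238), Tcap (0.21 ± 0.09, adjusted p = 0.31) and Tnnt2 (the tropomyosin-binding troponin, 0.16 ± 0.07, adjusted p = 0.324) were among those 7. Without DM males 3 and 5 the median of the members in males was 0.02, beside -0.0025 for all genes.

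The difference between the sexes in the response to the microbiome was tested directly, and 0 of 30 members passed in limma, in a test that 0.396% of genes did pass (0.377% with a higher and 0.0184% with a lower response in females). The smallest adjusted p was 0.62, for Tcap, the 1 member with an unadjusted p under 0.05 and a response difference of -0.29 ± 0.12 (females minus males). Of all 10866 genes, 805 had an unadjusted p under 0.05 in this test. The differences were negative for 25 members and positive for 5, with a median of -0.10, against -0.01 for all genes. The signs of all genes, called or not, were not counted in any comparison. Members that shifted together within a library are also not independent of each other. Without DM males 3 and 5 that median was -0.02, against 0.01 for all genes. Differences were also negative for 5 of 6 smooth muscle and pericyte markers (median -0.67, 4 with an unadjusted p under 0.05, none passing) and for 5 of 5 red cell markers (median -0.62, none passing). So were those of 36 of 45 other sarcomere genes (median -0.11), 5 of 5 liver-typical genes (-1.09), 5 of 5 endothelial markers (-0.05) and 4 of 4 fat cell markers (-0.25). Of the 9 other heart muscle markers, 5 were negative and 4 positive (median -0.01). Fibroblast, macrophage and atrial markers were mixed (4 of 6, 3 of 5 and 3 of 6 negative). The smooth muscle list summed to 197 to 265 FPKM in DM females, 218 to 321 FPKM in NM females, 221 to 285 FPKM in DM males and 200 to 269 FPKM in NM males. The red cell list summed to 932 to 1222 FPKM in DM females, 1222 to 1714 FPKM in NM females, 982 to 2763 FPKM in DM males and 1009 to 1714 FPKM in NM males. The part of any of these lists in the values of the members was not tested. For Nexn the difference was -0.06 ± 0.08 (adjusted p = 0.92) and for Myom2 -0.08 ± 0.08 (adjusted p = 0.898). The female call of Nexn is thus not shown to differ from the male value.

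**Figure D3:**
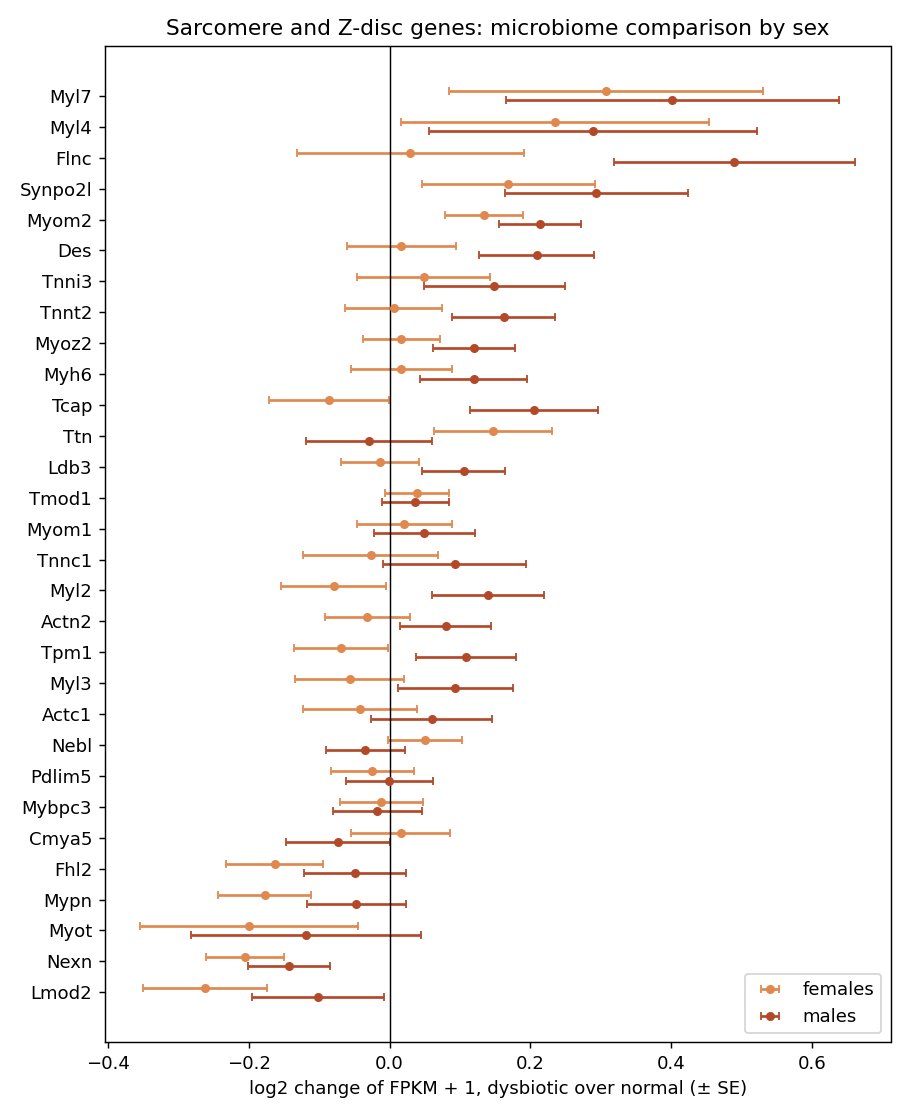
Log2 changes of FPKM + 1 between DM and NM with their SE for the 30 members over the filter, in 10 females and in 9 males. Myom2 lies to the right and Nexn to the left of 0 in both sexes, Flnc is at 0.49 in males and 0.03 in females, and the widest bars belong to Myl7 and Myl4.

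The isoform pairs were compared as ratios within a library, which do not depend on how the library was scaled. None of the 12 tests (4 ratios, each in females, in males and over both sexes) passed after adjustment over the 12, with 0.285 as the smallest adjusted p. Within 1 sex the exact permutation test, two-sided, cannot give a p below 0.00794. After adjustment over the 12, a ratio within 1 sex could thus pass only if another of the tests was as extreme. That none passed within a sex therefore does not show that the ratios were unchanged.

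Myl7 (the atrial regulatory light chain) had 603, 687, 585, 636 and 595 FPKM in DM females, against 342, 633, 473, 528 and 584 FPKM in NM females. Male hearts had 649, 633, 891, 642 and 600 FPKM with DM, against 822, 366, 695 and 327 FPKM with NM. NM libraries held both the lowest and nearly the highest values, and the groups overlapped in both sexes. Its ventricular partner Myl2 had 2379, 2187, 2452, 2094 and 2043 FPKM in DM females, against 2260, 2502, 2284, 2425 and 2297 FPKM in NM females, and 2422, 2402, 2345, 2087 and 3002 FPKM in DM males, against 2115, 2140, 2310 and 2278 FPKM in NM males. Myl7 amounted to 28.0 ± 3.27% of Myl2 in DM females, against 21.7 ± 4.22% in NM females (mean ± SD, n = 5 each). The percentages were 28.4 ± 6.63% in DM males (n = 5), against 25.1 ± 11.5% in NM males (n = 4). The difference in the log2 ratio, DM minus NM, was 0.39 in females (exact permutation p = 0.0397, adjusted p = 0.285) and 0.26 in males (exact permutation p = 0.437, adjusted p = 0.655).

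Myl4 (the atrial essential light chain) had 74.0, 85.4, 73.7, 81.5 and 68.8 FPKM in DM females, against 47.7, 82.8, 61.6, 63.7 and 73.8 FPKM in NM females. In males it had 80.1, 79.0, 119, 88.5 and 71.8 FPKM with DM, against 112, 52.2, 95.2 and 44.3 FPKM with NM. The groups overlapped in both sexes, with the lowest values in the same NM libraries as for Myl7. Myl3, its ventricular partner, had 1455, 1363, 1573, 1351 and 1206 FPKM in DM females, against 1401, 1497, 1410, 1436 and 1457 FPKM in NM females, and 1383, 1505, 1562, 1329 and 1868 FPKM in DM males, against 1382, 1383, 1453 and 1475 FPKM in NM males. For the log2 ratio of Myl4 to Myl3 the difference, DM minus NM, was 0.30 in females (exact permutation p = 0.0635, adjusted p = 0.285) and 0.20 in males (exact permutation p = 0.579, adjusted p = 0.695). Per gene over both sexes, the log2 change was 0.35 ± 0.16 for Myl7 (limma, adjusted p = 0.272) and 0.26 ± 0.16 for Myl4 (adjusted p = 0.436). With DM males 3 and 5 left out, it was 0.32 for Myl7 (limma, adjusted p = 0.444) and 0.23 for Myl4 (adjusted p = 0.605).

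Sln (sarcolipin, an atrial calcium pump inhibitor) is no member and ranked the libraries much as Myl7 and Myl4 did. NM male 4, NM male 2 and NM female 1 held the 3 lowest values of Myl7, Myl4 and Sln alike, and DM male 3 and NM male 1 the 2 highest. Sln had 54.4, 65.8, 54.2, 55.1 and 52.9 FPKM in DM females, against 37.3, 59.8, 44.3, 46.0 and 52.1 FPKM in NM females, and 65.3, 53.9, 89.2, 58.2 and 47.8 FPKM in DM males, against 81.3, 36.2, 65.3 and 31.4 FPKM in NM males. Of the 7 atrial markers (Sln, Nppa, Bmp10, Kcnj3, Nr2f1, Kcna5 and Stard10), 6 passed the filter, none was at 0, and Kcna5 fell between the microbiomes (-0.26, limma, adjusted p = 0.0131) while the other 5 did not pass. Over both sexes the list was split in sign. Sln (0.27), Stard10 (0.21), Kcnj3 (0.19) and Nppa (0.19) had positive log2 changes, and Bmp10 (-0.20) a negative one, as Kcna5 did. The list summed to 1669 to 2027 FPKM in DM females, 1471 to 2400 FPKM in NM females, 1393 to 3244 FPKM in DM males and 1059 to 2625 FPKM in NM males. The part of atrial tissue in the light chain ratios was not tested.

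**Figure D4:**
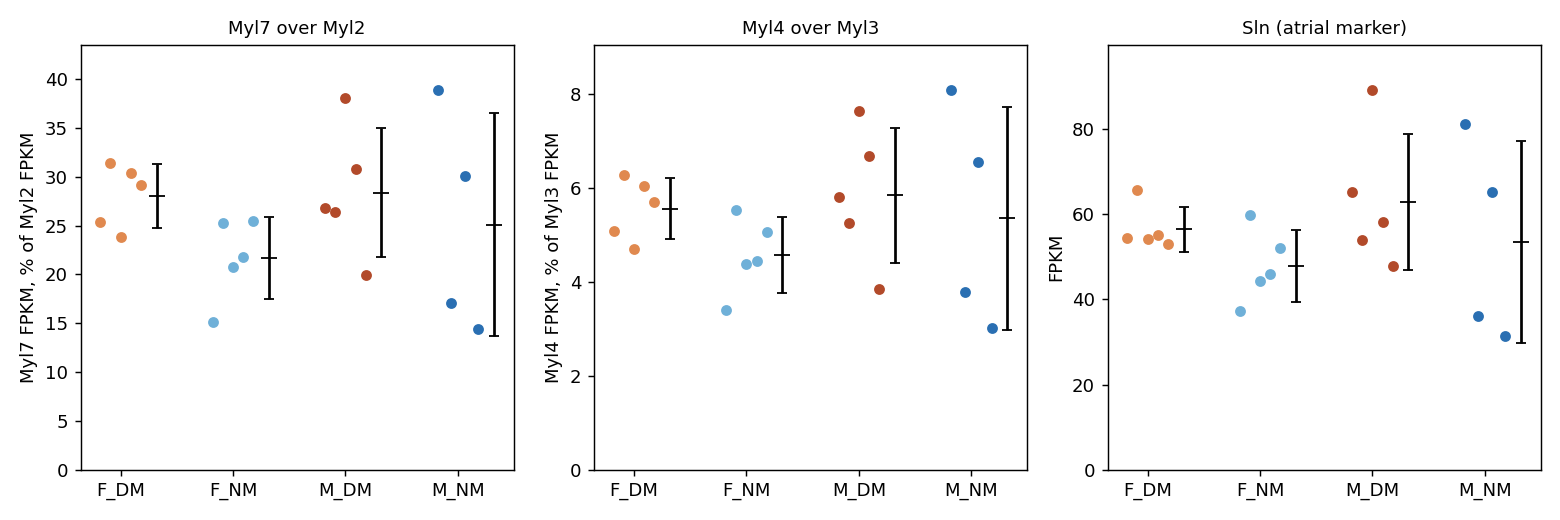
Points are libraries in DM females (F_DM), NM females (F_NM), DM males (M_DM) and NM males (M_NM), with the mean and SD in black: Myl7 as a percent of Myl2 FPKM, Myl4 as a percent of Myl3 FPKM, and the FPKM of the atrial marker Sln. The order of the libraries is much alike in the 3 panels, with NM males 2 and 4 and NM female 1 low and DM male 3 and NM male 1 high.

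The heavy chain pair was steadier. Myh6 had 2738, 3038, 3040, 3337 and 2772 FPKM in DM females, against 2870, 3051, 2941, 2968 and 2891 FPKM in NM females, and 2181, 2593, 2534, 2467 and 3120 FPKM in DM males, against 2342, 2278, 2376 and 2439 FPKM in NM males. Myh7, the beta heavy chain of the fetal and stressed mouse heart, is no member and had 99.8, 106, 117, 114 and 101 FPKM in DM females, against 97.0, 106, 106, 98.7 and 97.2 FPKM in NM females, and 87.2, 84.7, 95.8, 84.3 and 108 FPKM in DM males, against 80.8, 90.6, 80.8 and 79.7 FPKM in NM males. Myh7 stayed between 3.26% and 4.00% of Myh6 in all 19 libraries. For the log2 ratio of Myh7 to Myh6 the difference, DM minus NM, was 0.07 in females (exact permutation p = 0.0873, adjusted p = 0.285) and 0.03 in males (exact permutation p = 0.762, adjusted p = 0.762). The coding parts of Myh6 and Myh7 are near-identical in stretches, and Myh7 overlaps the antisense gene Mhrt (44.0 FPKM), so reads may have been shared between them where the counting did not use strand, which is not given in the sources used here.

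The troponin pair could not be read closely. Tnni3 had 1453, 1344, 1496, 1315 and 1375 FPKM in DM females, against 1309, 1397, 1310, 1344 and 1389 FPKM in NM females, and 1124, 1294, 1186, 1209 and 1821 FPKM in DM males, against 1225, 1040, 1235 and 1224 FPKM in NM males. Tnni1 had 0.207, 0.271, 0.183, 0.157 and 0.106 FPKM in DM females, against 0.0734, 0.133, 0.175, 0.174 and 0.0937 FPKM in NM females, and 0.0691, 0.125, 0.218, 0.147 and 0.1002 FPKM in DM males, against 0.158, 0.145, 0.107 and 0.0866 FPKM in NM males. These Tnni1 values lie far under the filter and overlapped in both sexes. The difference in the log2 ratio of Tnni1 to Tnni3, DM minus NM over both sexes, was 0.18 (exact permutation p = 0.518, adjusted p = 0.691), and its sign turned with a pseudocount of 1 (-0.060).

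Other genes of the sarcomere, 54 listed and 45 over the filter, were counted beside the members. Over both sexes 2 rose and 2 fell (8.89%, beside the 5.67% of all genes). Trim63 (the muscle ubiquitin ligase MuRF1, which marks sarcomere proteins for breakdown) had 39.2, 47.2, 57.9, 49.3 and 46.5 FPKM in DM females, against 90.4, 67.7, 71.2, 79.96 and 66.1 FPKM in NM females. In males Trim63 had 34.8, 42.1, 41.3, 38.6 and 37.4 FPKM with DM, against 49.9, 59.7, 55.3 and 56.5 FPKM with NM. Every DM heart was below every NM heart of its sex, a separation whose share over all genes was not counted. Trim63 fell by 0.57 ± 0.07 over both sexes (limma, adjusted p = 6.09e-05), by 0.63 in females (adjusted p = 0.00121) and by 0.50 in males (adjusted p = 0.0121). The male call of Trim63 was lost without NM male 2 (adjusted p = 0.0588). The cytoskeletal tropomyosin Tpm4 fell by 0.24 ± 0.05 (adjusted p = 0.00435), the leiomodin Lmod3 rose by 0.21 ± 0.04 (adjusted p = 0.00705) and the actin-bundling palladin gene Palld rose by 0.19 ± 0.05 (adjusted p = 0.0166). Within females Trim63, Tpm4 and Palld passed (6.67% of the 45, beside 2.84% of all genes). Of these, Tpm4 was lost without 1 of 3 single libraries (DM female 2, DM female 4 or NM female 4, adjusted p up to 0.0765) and Palld without 1 of 7 (each female library but DM females 3 and 5 and NM female 2, adjusted p up to 0.0823). Both female calls were also lost with no filter (adjusted p = 0.0582 for Tpm4 and 0.0688 for Palld), and that of Palld with females alone in the fit (adjusted p = 0.0676). Within males Trim63 alone passed (2.22% of the 45, near the 1.91% of all genes). None of the 45 passed in the difference between the sexes in microbiome response, as 0.396% of all genes did.

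Between females and males 12 of the 30 members passed in the same 19 libraries. In females 4 of 30 were higher and 8 lower than in males, 40% of the members, against 31.4% of all genes (23.4% higher and 7.94% lower). The members' median log2 change was -0.06, against 0.04 for all genes. The split of all genes, 2548 higher and 863 lower, was 1474 and 1584 with a GC correction and 1769 and 1758 after median-ratio scaling, where the members' split was 3 higher and 12 lower. Without DM males 3 and 5 it was 7 higher and 7 lower.

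Tcap, which anchors titin at the Z-disc, was higher in females, at a median of 1358 FPKM (1254 to 1500 FPKM), against 971 FPKM in males (744 to 1308 FPKM). The sexes overlapped through DM male 5 alone, and the log2 change was 0.50 ± 0.06 (limma, adjusted p = 9.61e-06). Ttn (titin, the spring from the Z-disc to the M-band, 0.27 ± 0.06, adjusted p = 0.00229), Myh6 (0.27 ± 0.05, adjusted p = 0.000798) and Myom2 (0.14 ± 0.04, adjusted p = 0.0115) were also higher in females. The call of Myom2 did not stand after median-ratio scaling (0.08, adjusted p = 0.0696) or with a GC correction (0.09, adjusted p = 0.0627). For Ttn the means were 9.99 ± 1.16 FPKM in females and 8.08 ± 0.841 FPKM in males (SD, n = 10 and n = 9).

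Fhl2, a LIM-domain protein that docks metabolic enzymes to titin, was the 1 member of 30 whose sexes did not overlap, as was true of 2.88% of the 10866 genes tested. Its median was 372 FPKM in females (311 to 441 FPKM), against 499 FPKM in males (470 to 564 FPKM), a log2 change of -0.46 ± 0.05 (limma, adjusted p = 2.32e-06). Synpo2l was lower in females at a median of 14.5 FPKM (11.9 to 18.9 FPKM), against 21.7 FPKM in males (17.4 to 33.5 FPKM), and changed by -0.49 ± 0.09 (adjusted p = 0.000511). Flnc was lower in females at 18.6 FPKM (15.5 to 22.3 FPKM), against 23.4 FPKM in males (19.3 to 51.3 FPKM), and changed by -0.41 ± 0.12 (adjusted p = 0.0127). Without DM males 3 and 5 the changes were -0.40 for Synpo2l (adjusted p = 0.000619) and -0.30 for Flnc (adjusted p = 0.00798), so both calls stood.

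The other 5 members that were lower in females changed less. They were the Z-disc PDZ and LIM proteins Pdlim5 (-0.18 ± 0.04) and Ldb3 (-0.17 ± 0.04), nebulette (Nebl, -0.17 ± 0.04), the M-band protein Myom1 (-0.14 ± 0.05) and Nexn (-0.13 ± 0.04), with adjusted p-values from limma between 0.00215 and 0.0315. The Myom1 call was lost without DM males 3 and 5 (adjusted p = 0.0638) and without DM female 1, NM female 3, DM male 2, NM male 2 or NM male 3 alone (adjusted p up to 0.0771), and with no filter (adjusted p = 0.0726). Myom1 overlaps Myl12a (134 FPKM) on the opposite strand. The sexes overlapped in all 5. The members not called between the sexes had log2 changes from -0.15 to 0.15. Of these, Actc1, Tpm1, Mypn and Cmya5 passed as lower in females after median-ratio scaling, and Tnni3, Des and Actn2 passed as higher in females without DM males 3 and 5.

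Among the 45 other sarcomere genes, 4 were higher in females and 17 were lower (46.7%), beside 31.4% of all genes (23.4% higher and 7.94% lower), whose split was near even after median-ratio scaling. Those of smallest p included Tmod4 (-0.38 ± 0.05), Tpm4 (-0.28 ± 0.05), Smyd1 (-0.22 ± 0.04), Trim63 (0.36 ± 0.07) and the X-linked Fhl1 (-0.38 ± 0.07). Among the 9 heart muscle markers, Casq2 (-0.25) and Slc8a1 (-0.26) were lower in females and none was higher. Fat cell markers moved with sex, with Cfd (1.94) and Cidec (0.95) higher in females among the 4 tested, and the list summed to 30.5 to 59.9 FPKM in DM females, 18 to 72.1 FPKM in NM females, 3.67 to 27.5 FPKM in DM males and 5.18 to 15.9 FPKM in NM males. Of other cell types, the endothelial markers Kdr (-0.37), Pecam1 (0.12) and Tie1 (0.12), the macrophage markers Csf1r (0.16) and C1qa (0.18), the fibroblast marker Col3a1 (-0.50), the atrial marker Kcna5 (0.25) and the skeletal muscle marker Myl1 (-0.40) passed between the sexes, and no smooth muscle or red cell marker did. The endothelial list summed to 87.7 to 101 FPKM in DM females, 91.6 to 107 FPKM in NM females, 87.9 to 98.9 FPKM in DM males and 86.2 to 95.1 FPKM in NM males. The macrophage list summed to 35.03 to 38.6 FPKM in DM females, 35.4 to 41.7 FPKM in NM females, 33.2 to 39.7 FPKM in DM males and 30.9 to 39.0 FPKM in NM males. The part of these cell types in the differences of the members between the sexes was not tested.

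**Figure D5:**
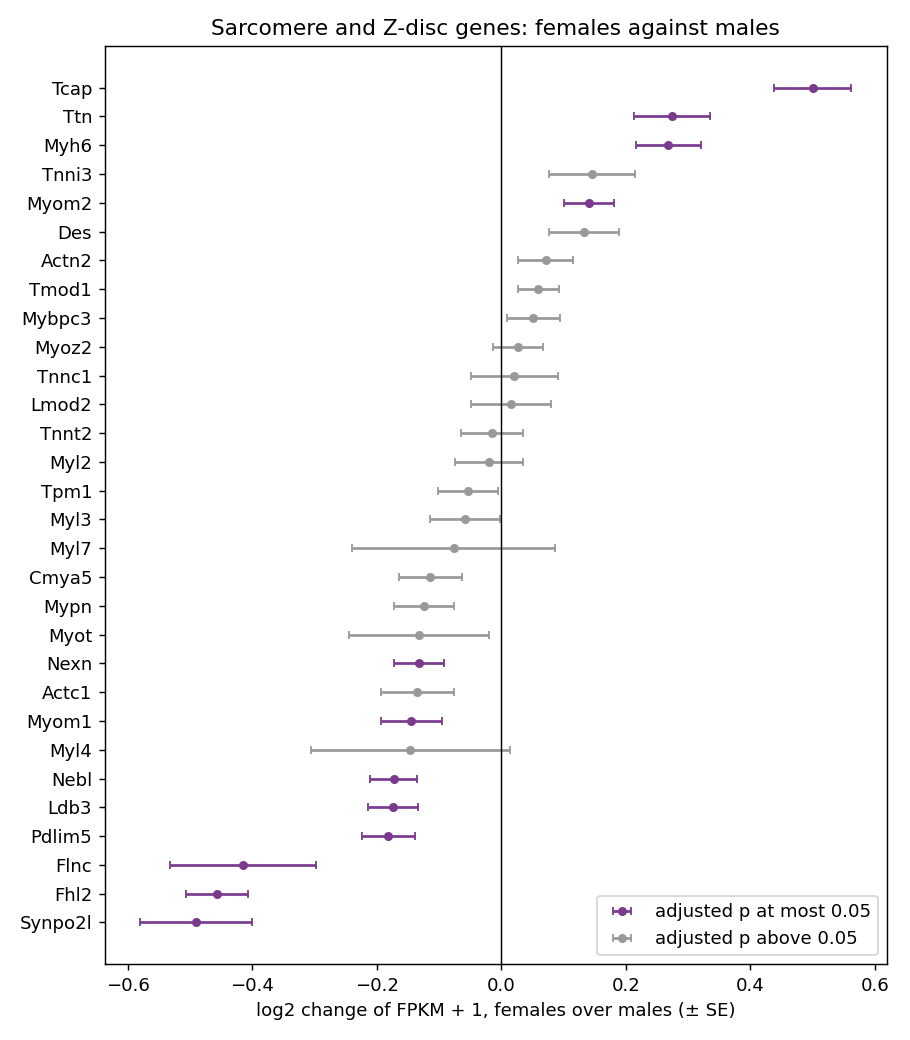
Log2 changes of FPKM + 1 between females and males with their SE for the 30 members over the filter, ordered by size, with the 12 that passed in purple. Tcap lies farthest to the right at 0.50, and Synpo2l (-0.49), Fhl2 (-0.46) and Flnc (-0.41) lie farthest to the left.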

How the data were processed

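Tools named in the submitters' processing notes are StringTie 1.3.4d, HISAT2 2.0.4, DESeq2 and cutadapt 1.9. A human build, hg38, is named there too, while 99.7% of the gene identifiers are found in GENCODE M21, so coordinates were taken from that mouse annotation (GRCm38). The authors deposited FPKM per gene and library. They also deposited a fold change (ratio) of mean FPKM, DM over NM with both sexes pooled, its log2 value, a p-value and a q-value. The log2 value was checked to equal that of the ratio of mean FPKM within 0.001 for 100% of genes with a ratio above 0. Only 14.0% to 18.3% of low values of FPKM times transcript length were near whole multiples of the value taken as 1 fragment. Counts were thus not recovered.

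Tests across genes used limma 3.58.1 in R 4.3.3, with a mean-variance trend and robust shrinkage, on log2 of FPKM plus a pseudocount of 1. The 10866 genes that reached 1 FPKM in 4 or more libraries entered, and a single fit held all 19 libraries with a mean for each group. Fold changes on this scale understate those of low genes. Tests were two-sided, with Benjamini-Hochberg adjusted p of 0.05 over all genes tested as the threshold. A count test had been planned had the files held counts. Isoform ratios of FPKM, with no pseudocount, were tested by exact permutation within sex. The fit was tested on simulated data with known changes. These were larger than those of Myom2 and Nexn, and the genes were drawn independently, with no shift shared within a library. The simulation thus does not bear on calls of that size. The members and lists were chosen with earlier results of these data known. Values of every library are given for members that passed between microbiomes, the 6 of smallest p over both sexes, the isoform pairs and, as ranges, the 4 largest of those that passed between sexes; up to 6 other sarcomere genes of smallest p are named per comparison, of which 1 is not reported here. Promoter sequences are RefSeq's (GRCm38.p6), the first listed per gene. Alternatives covered scaling, filter, pseudocount, replicate block, GC content, 1 sex alone and each library left out. Figures used Python 3.11.15 and matplotlib 3.10.9.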

Additional observations from a re-analysis of the deposited data

Results flagged for a closer look

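In 7 of 112 sets of 4 or 5 libraries (1 named gene or isoform ratio in 1 group each), 1 library lay far from the others by Dixon's criterion, which chance alone meets in about 1 of 20. DM male 3 was highest in its group for Flnc (51.3 FPKM, the others 22.4 to 30.1), Myl7 (891 FPKM, the others 600 to 649) and Lmod2 (366 FPKM, the others 309 to 321). DM male 5 was highest for Tnni3 (1821 FPKM, the others 1124 to 1294). NM male 2 was lowest for Tnni3 (1040 FPKM, the others 1224 to 1235) and highest for Myh7 (90.6 FPKM, the others 79.7 to 80.8). DM female 5 was lowest for Myom2 (97.3 FPKM, the others 113 to 119). No member passed the test of a difference between the sexes in the response to the microbiome.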

How the results depend on the processing

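The calls of Myom2 and Nexn over both sexes kept their sign and stayed past the threshold under every alternative run. With the replicate block together with the GC correction 4 members passed over both sexes (Mypn, at -0.14 with an adjusted p of 0.00397 from limma, and Fhl2 added). In females the count of members called was 2 with median-ratio scaling and with the replicate block together with the GC correction, and 0 with no filter, with the filter in 10 libraries, with a pseudocount of 0.1 and with females alone in the fit. Leaving out 1 library gave 0 to 1 members in females and 0 to 1 in males. The cause of these shifts was not tested.

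Counts over all genes moved more. In males 97 genes passed with no filter, 81 with males alone in the fit, 114 without DM males 3 and 5, and 60 to 258 when 1 library was left out (fewest without NM male 2, also low without NM male 3 or 4 or DM male 2 or 3). In females the range was 169 to 356 (fewest without NM female 1, also low without NM female 3 or 4). In the difference between the sexes in microbiome response 22 passed with no filter, 65 with the GC correction, 86 without DM males 3 and 5, and 24 to 102 when 1 library was left out (fewest without NM male 2, most without DM male 5), with 0 members in each.

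The difference in log2 ratio between DM and NM males ran from -0.040 to 0.44 for Myl4/Myl3, from -0.37 to 0.068 for Tnni1/Tnni3 and from -0.015 to 0.085 for Myh7/Myh6 when 1 library was left out, so their signs turned. Over both sexes Tnni1/Tnni3 was -0.060 with a pseudocount of 1.

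Replicate numbers did not pair the libraries: same-numbered libraries of 2 groups had correlations of their deviations from -0.49 to 0.53 (median -0.03, 10 of 27 over 0.1), and 3 of 19 libraries correlated best with their own number. With the replicate block 2 members passed over both sexes and 106 genes in males, and the female call went from Nexn (adjusted p = 0.0715) to Mypn.

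FPKM without counts give no counting error, so how far depth limits genes as low as Tnni1 is unknown.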
